A study of Homo sapiens with 5 samples.

Results

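Untagged ESM1 was expressed from a lentivirus in 22Rv1 cells, and its library is set here against the library of its own empty vector, Vector-1. ESM1 encodes endocan, a secreted proteoglycan, and 22Rv1 is an established human prostatic carcinoma line with epithelial features. The measure was the difference of log2(FPKM + 1), ESM1 minus Vector-1, where FPKM are fragments scaled to transcript length and library size. Genes averaging 1 FPKM or more in this pair of libraries were included, which 12296 of the 26506 gene symbols were. Of 562 genes on 21 lists of stress, cell cycle and lipid genes, 496 were included, and the other 66 were too low to compare.

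All cells were grown in RPMI-1640 with serum and antibiotics, and lentivirus was added before they were full. RNA was taken 72 hours later. The groups were Vector-1 (empty control), ESM1 (overexpression of ESM1), Vector-2 (a second empty control), ESM1-NLS and ESM1-NES (overexpression of 2 altered forms, each paired with Vector-2 by the study's design). The labels do not spell out NLS and NES, name no promoter for the transgene and do not say whether cells were selected. There was 1 library in each group, so differences have no replicate check and conditions were not tested. Ratios carry exact 95% intervals (Clopper-Pearson) on estimated reads, which cover counting error only.

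The stress programmes examined here have well-known wiring. Transcription factor p53 responds to DNA damage and other stress by switching on cell cycle inhibitors such as CDKN1A and pro-apoptotic genes such as BBC3. Unfolded protein in the endoplasmic reticulum (ER) activates the sensors ERN1, ATF6 and EIF2AK3, which act through XBP1, cleaved ATF6 and ATF4 on chaperones, degradation factors and amino acid genes. Proliferating cells express replication genes in S phase under E2F factors and mitotic genes later in the cycle. Cholesterol and fatty acid synthesis are driven by the SREBP factors, encoded by SREBF1 and SREBF2, and in prostate cancer cells both pathways are also known as androgen responsive.

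The transgene matched the labels. ESM1 was at 2437 FPKM in the ESM1 library and listed at 0 in Vector-1, which is at least 24870-fold higher against a floor of 3 reads in Vector-1 (0.098 FPKM). It took 0.491% of the reads of its library and ranked 11 by level there. It was also listed at 0 in Vector-2. The cells were of prostate luminal type by their RNA, since all 12 luminal markers written for the check had a mean of 1 FPKM or more, with summed levels of 1395 FPKM in Vector-1 and 1440 FPKM in ESM1. None of 8 endothelial markers reached that mean, and their summed level was 0.14 FPKM and 0.17 FPKM. Estimated depth was 15202221 reads in Vector-1 and 14019392 reads in ESM1.

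Promoter sequences are shown for 4 genes on which the stress and cell cycle results turn, with the letters of a known element in capitals. They run 5′ to 3′ on the strand of the gene, cover the 250 bases before the transcription start, and come from RefSeq on GRCh38.p14. HSPA5 lies at chr9:125241344-125241593 on the minus strand, and its capitals mark an ER stress element, CCAAT and CCACG with 9 bases between them, at positions -66 to -48 from the start. HERPUD1 lies at chr16:56931892-56932141 on the plus strand, and its capitals mark the reverse complement of TGATGCAA, the element read by ATF4 and CEBP factors, at -176 to -169, and the second form of the ER stress element, ATTGG and CCACG with 1 base between them, at -117 to -107. CHAC1 lies at chr15:40953221-40953470 on the plus strand, and its capitals mark the reverse complement of TGATGCAA at -209 to -202. MKI67 lies at chr10:128126424-128126673 on the minus strand, and its capitals mark TTTGAA, the cell cycle homology region, at -47 to -42 and -29 to -24.
HSPA5: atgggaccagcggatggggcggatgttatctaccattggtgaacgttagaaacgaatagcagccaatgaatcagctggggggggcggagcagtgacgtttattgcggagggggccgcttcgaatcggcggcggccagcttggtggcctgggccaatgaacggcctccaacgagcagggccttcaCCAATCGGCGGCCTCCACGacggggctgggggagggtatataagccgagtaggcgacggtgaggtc
HERPUD1: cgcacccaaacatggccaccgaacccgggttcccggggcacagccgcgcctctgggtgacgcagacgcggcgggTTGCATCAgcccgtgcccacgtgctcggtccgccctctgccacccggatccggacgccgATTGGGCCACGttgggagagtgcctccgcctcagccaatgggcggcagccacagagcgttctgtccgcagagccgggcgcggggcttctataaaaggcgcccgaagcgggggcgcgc
CHAC1: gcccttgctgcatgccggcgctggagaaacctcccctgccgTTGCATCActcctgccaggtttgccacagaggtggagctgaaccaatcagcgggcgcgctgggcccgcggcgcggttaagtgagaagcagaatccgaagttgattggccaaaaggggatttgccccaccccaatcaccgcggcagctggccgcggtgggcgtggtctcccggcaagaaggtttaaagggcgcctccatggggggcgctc
MKI67: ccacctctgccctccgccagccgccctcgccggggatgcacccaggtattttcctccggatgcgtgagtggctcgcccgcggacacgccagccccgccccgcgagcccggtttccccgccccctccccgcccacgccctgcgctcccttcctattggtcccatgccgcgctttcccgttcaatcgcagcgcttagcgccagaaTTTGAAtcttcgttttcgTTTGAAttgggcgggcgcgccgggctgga

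Each element was searched on both strands, and none of the matches in capitals overlap each other. The first ER stress element occurred in 22 of 27305 promoters (0.0806%) and in 6 of the 22 promoters found for tested ER chaperone genes (27.3%), which were those of HSPA5, HSP90B1, CALR, CANX, CRELD2 and ERO1B. Its second form occurred in 14 promoters of 27305, among them those of HERPUD1, HYOU1 and SDF2L1. TGATGCAA occurred in 224 promoters (0.82%) and in 1 of the 24 found for tested genes of the ATF4 list (4.17%), that of CHAC1. TTTGAA occurred in 3704 promoters (13.6%) and in 29 of the 53 found for tested mitosis genes (54.7%). TCACCCCA, a sterol regulatory element, occurred in 343 promoters (1.26%) and in 1 of 15 found for cholesterol synthesis genes. Among the 9512 promoters of tested protein-coding genes, the shares were 0.147%, 0.116%, 0.357%, 8.04% and 1.06% for the elements in the order given. A match describes the letters of the window and is neither a bound site nor a cause of a difference.

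Differences between the libraries were small for most genes. The median difference over the 12296 genes was 0.012, and the range from the 5th to the 95th percentile was -0.27 to 0.36 on the log2 scale. On that scale 146 genes (1.19%) exceeded Vector-1 by 1.5-fold or more in ESM1 and 40 (0.325%) were below it by as much, while 33 (0.268%) did so by 2-fold upward and 2 (0.0163%) by 2-fold downward. Of the 496 members tested, 27 passed 1.5-fold upward and 0 downward. They were divided into 19 of 230 stress genes, 8 of 170 cell cycle genes and 1 of 100 lipid genes, with CDKN1A counted under both stress and cell cycle. Among the cell cycle genes, HIST1H4K was included only through its level in ESM1, and the identical copies HIST2H2AA3 and HIST2H2AA4 were counted separately. The median was 0.11 over stress genes, -0.10 over cell cycle genes and 0.08 over lipid genes. In bulk RNA, fewer cells in a state and less RNA per cell cannot be told apart.

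**Figure D1:**
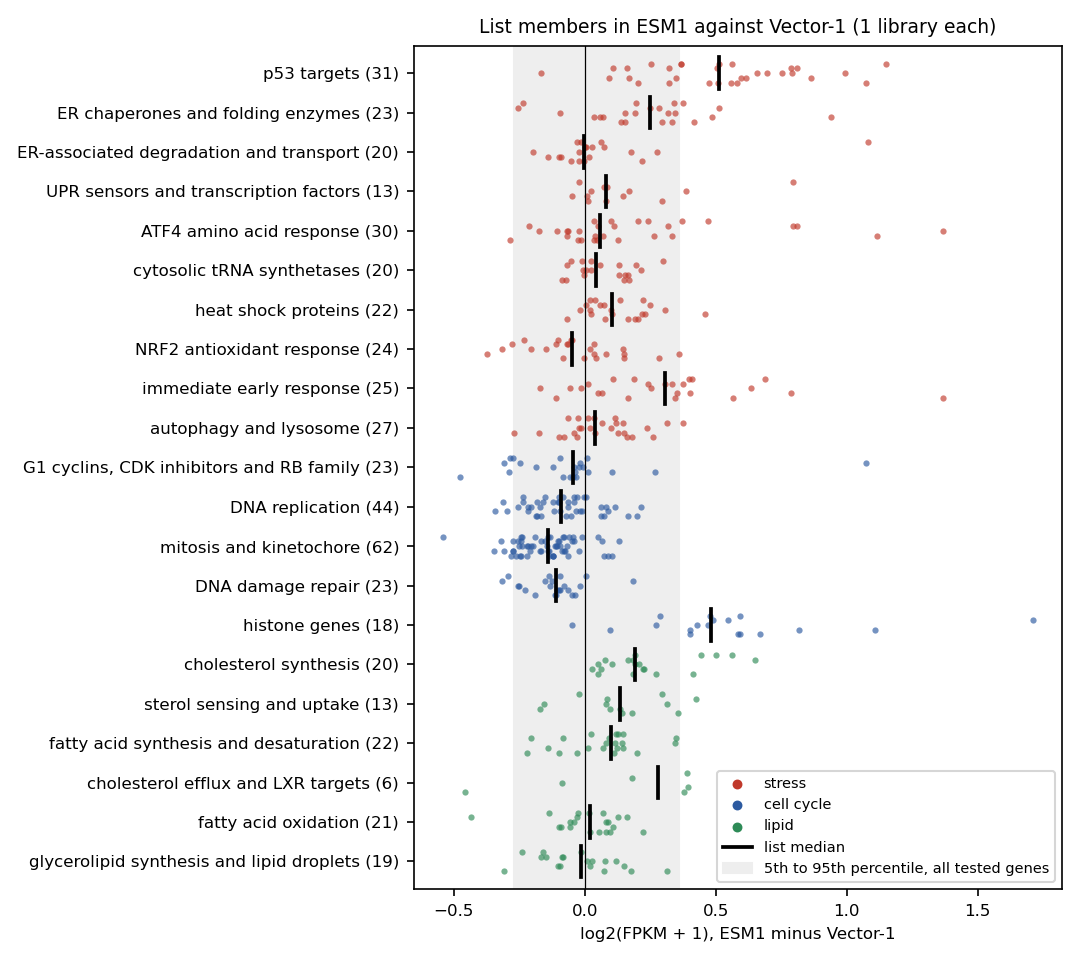
Difference of log2(FPKM + 1), ESM1 minus Vector-1, for each tested member of the 21 lists (number of members in parentheses, 1 point a gene, 1 library per side), with list medians as black bars and the 5th to 95th percentile of all tested genes in grey. The p53 targets and histone genes sit furthest to the right, with medians of 0.51 and 0.48, and the mitosis list lies mostly left of 0, with a median of -0.14.

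Genes activated by p53 were the stress list furthest from 0. Of 31 members tested, 30 were above 0, against 52.8% of all tested genes, and the median was 0.51. Of these, 24 were at least 1.2-fold higher, against 10.1% of all tested genes, 12 passed 1.5-fold, and 0 lay 1.2-fold or more below. CDKN1A, the cyclin-dependent kinase inhibitor p21, was at 45.6 FPKM in Vector-1 and 97.2 FPKM in ESM1, a ratio of 2.13 (2.0 to 2.27). PHLDA3, an inhibitor of AKT signalling, was at 12.4 and 28.8 FPKM, a ratio of 2.32 (2.06 to 2.61). BBC3, whose product PUMA promotes apoptosis, was at 10.0 and 20.9 FPKM, a ratio of 2.09 (1.79 to 2.45). All 3 were higher in ESM1 by far more than counting error.

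DDB2, which recognises ultraviolet damage in DNA, was at 15.3 FPKM in Vector-1 and 28.7 FPKM in ESM1 (ratio 1.87, 1.65 to 2.12). Other members were chosen after their values were seen. GDF15, a stress-induced secreted cytokine, was at 24.6 and 42.1 FPKM (ratio 1.71), and BAX, a pore-forming apoptosis protein, was at 39.1 and 60.5 FPKM (ratio 1.55). CCNG1, a cyclin that feeds back on p53, was at 73.6 and 105 FPKM (ratio 1.43). The members were thus spread over arrest, apoptosis, repair and signalling. MDM2, the ubiquitin ligase that limits p53, differed less, at 37.1 and 41.6 FPKM (ratio 1.12, 1.08 to 1.17). PMAIP1, a pro-apoptotic p53 target, was the 1 member below 0, at 12.03 and 10.6 FPKM. TP53I3 was too low to test.

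The levels in the other 3 libraries bear on which side of this comparison stands apart. Those libraries come from a table that was normalised separately, so levels set across the tables are approximate. CDKN1A was at 196 FPKM in Vector-2, 218 FPKM in ESM1-NES and 246 FPKM in ESM1-NLS, all above both ESM1 and Vector-1. PHLDA3 was at 31.4, 39.7 and 40.2 FPKM, and BBC3 at 32.3, 34.5 and 38.3 FPKM, in the same order of libraries. Vector-1 was the lowest of the 5 libraries for 28 of the 31 p53 targets (90.3%), against 34% of all tested genes. ESM1 lay between the 2 empty vectors for 26 of the 31 (83.9%), against 54.3% of all tested genes. Set against Vector-2, the p53 targets in ESM1 had a median of -0.25, so the direction of this list depends on which empty vector is the control. Whether a low Vector-1 or a high ESM1 makes the difference cannot be told apart with 1 library of each.

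**Figure D2:**
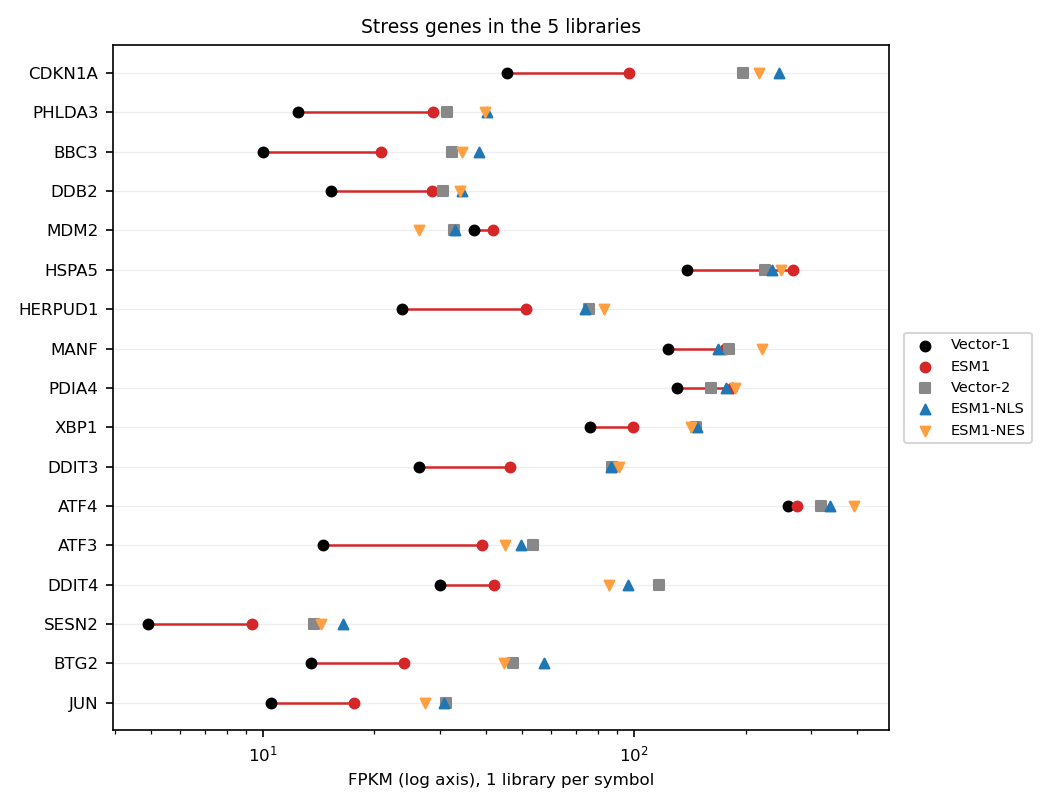
FPKM of 17 stress genes in the 5 libraries (log axis, 1 library per symbol), with a red line from Vector-1 to ESM1. Vector-1 (black) is to the left of the other 4 libraries for most of the genes, as for CDKN1A at 45.6 FPKM, while ESM1 (red) exceeds Vector-2 (grey) for HSPA5, PDIA4 and MDM2 and lies below it for ATF3, DDIT3, BTG2 and JUN.

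ER chaperones and folding enzymes were higher in ESM1 as a list, led by HSPA5. Of 23 members, 20 were above 0, against 52.8% of all tested genes, with a median of 0.25. At least 1.2-fold higher were 11, against 10.1% of all tested genes, and 0 were 1.2-fold lower, against 5.32%. HSPA5, the main Hsp70 chaperone of the ER (BiP), was at 139 FPKM in Vector-1 and 268 FPKM in ESM1, a ratio of 1.93 (1.87 to 1.98). MANF, a small ER protein secreted under stress, was at 123 and 176 FPKM (ratio 1.43, 1.34 to 1.53). PDIA4, a disulfide isomerase, was at 131 and 183 FPKM (ratio 1.40, 1.35 to 1.45). SIL1, a nucleotide exchange factor of HSPA5, was at 10.1 and 13.9 FPKM (ratio 1.37, 1.17 to 1.61). Each of the 4 was higher in ESM1 by more than counting error.

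In this list 3 members lay below 0. ERO1A and ERO1B, the ER oxidases that recharge disulfide isomerases, were chosen after their values were seen and were lower in ESM1, at 29.4 against 24.4 FPKM (ratio 0.832) and 4.24 against 3.45 FPKM (ratio 0.814). TXNDC5, a thioredoxin-like isomerase, was at 84.5 and 79.1 FPKM. Among the members whose promoters hold the first ER stress element, the differences ran from -0.24 in ERO1B and 0.07 in CANX to 0.33 in HSP90B1 and 0.94 in HSPA5. HYOU1 and SDF2L1, with the second form, differed by 0.32 and 0.38. In the chaperone list ESM1 was the highest of the 5 libraries for 12 of 23 members (52.2%), against 14% of all tested genes. HSPA5 was at 226 FPKM in Vector-2, 249 FPKM in ESM1-NES and 235 FPKM in ESM1-NLS. The list median against Vector-2 was 0.26, so the chaperones, unlike the p53 targets, were above 0 in ESM1 against both empty vectors.

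ER-associated degradation differed in 1 gene rather than as a list. HERPUD1, which recruits degradation factors to the ER membrane, was at 23.7 FPKM in Vector-1 and 51.3 FPKM in ESM1, a ratio of 2.16 (1.97 to 2.38). Its level was 75.5 FPKM in Vector-2, 83.1 FPKM in ESM1-NES and 74.0 FPKM in ESM1-NLS, all above both ESM1 and Vector-1. The other 19 members lay between -0.20 and 0.28, and 10 of 20 were above 0, near the 52.8% of all tested genes. SYVN1, the ubiquitin ligase HRD1, was at 10.4 and 12.8 FPKM (ratio 1.23), SEL1L, its partner, at 15.3 and 18.0 FPKM (ratio 1.18), and SEC24D, a coat protein of ER export, at 8.52 and 7.31 FPKM (ratio 0.858). The list median was -0.0019.

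In the list of unfolded protein response sensors and transcription factors, DDIT3 and XBP1 lay furthest from 0. XBP1, the transcription factor spliced by ERN1, was at 76.1 FPKM in Vector-1 and 99.8 FPKM in ESM1 (ratio 1.31, 1.23 to 1.39). DDIT3, the transcription factor CHOP, was at 26.4 and 46.5 FPKM (ratio 1.76, 1.54 to 2.02). PPP1R15A, which restores translation by dephosphorylating eIF2α, was at 17.8 and 22.1 FPKM (ratio 1.24, 1.11 to 1.38). ATF6 was at 9.62 and 10.8 FPKM (ratio 1.12, 1.03 to 1.22), and ATF4 at 260 and 276 FPKM (ratio 1.06, 1.02 to 1.10). Over the list 11 of 13 were above 0, against 52.8% of all tested genes, and the median was 0.08. Of the 13, 3 were at least 1.2-fold higher, against 10.1% of all tested genes. DDIT3 was at 87.3 FPKM in Vector-2, above both.

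Genes of the amino acid response, driven by ATF4, varied among themselves. ATF3, a stress-induced repressor and activator, was at 14.5 FPKM in Vector-1 and 39.0 FPKM in ESM1 (ratio 2.69, 2.40 to 3.0). SESN2, a leucine sensor upstream of mTORC1, was at 4.92 and 9.37 FPKM (ratio 1.90, 1.63 to 2.22). DDIT4, an mTORC1 inhibitor, was at 30.1 and 42.1 FPKM (ratio 1.40, 1.27 to 1.54). Some members are shared, SESN2 with the p53 list, ATF3 with the immediate early list and DDIT3 with the list of sensors and transcription factors. CHAC1, which degrades glutathione and was chosen after its values were seen, was at 1.65 and 4.74 FPKM (ratio 2.87, 1.97 to 4.36). ASNS, asparagine synthetase, was at 124 and 130 FPKM, PSAT1, of serine synthesis, at 117 and 121 FPKM, and SLC7A11, the cystine transporter, at 7.82 and 7.42 FPKM, all chosen after their values were seen. In all, 20 of 30 members were above 0, against 52.8% of all tested genes, with a median of 0.06. At least 1.2-fold higher were 9, against 10.1% of all tested genes. SLC7A1, an arginine transporter, was the 1 member 1.2-fold lower, against 5.32% of all tested genes. ATF3 was at 53.4 FPKM in Vector-2, 44.9 FPKM in ESM1-NES and 49.7 FPKM in ESM1-NLS. Vector-2 was also above both libraries for SESN2, at 13.7 FPKM, and DDIT4, at 117 FPKM.

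Cytosolic tRNA synthetases, many of which ATF4 also regulates, had 13 of 20 members above 0, against 52.8% of all tested genes. Their median was 0.04. FARSA differed most, at 53.2 FPKM in Vector-1 and 65.7 FPKM in ESM1 (ratio 1.24, 1.15 to 1.33), followed by VARS, QARS and AARS with ratios of 1.17, 1.15 and 1.12. Heat shock proteins had 20 of 22 members above 0, against 52.8% of all tested genes, with a median of 0.10. However, 2 of the 22 reached 1.2-fold upward, near the 10.1% of all tested genes. HSPB1, a small heat shock protein, was at 462 and 636 FPKM (ratio 1.38, 1.33 to 1.43), and HSF1, the factor that drives the response, at 19.5 and 24.4 FPKM (ratio 1.25, 1.12 to 1.40). HSPA8, the constitutive Hsp70, was at 930 and 1086 FPKM (ratio 1.17). HSPA1B, the inducible Hsp70, was at 112 and 132 FPKM (ratio 1.17), and its reads are hard to separate from those of its near-identical copy HSPA1A.

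The antioxidant list regulated by NRF2 had 10 of 24 members above 0, where 14 were below, against 46.9% of all tested genes, and its median was -0.05. GCLM, a subunit of the enzyme that starts glutathione synthesis, was at 22.5 FPKM in Vector-1 and 18.3 FPKM in ESM1 (ratio 0.817, 0.759 to 0.879). AKR1C1 and AKR1C2, near-identical reductases, were at 16.1 and 12.2 FPKM (ratio 0.758) and at 19.1 and 15.1 FPKM (ratio 0.793). The 3 members at least 1.2-fold lower, against 5.32% of all tested genes, were GCLM, AKR1C1 and AKR1C2. AKR1B10 was too low to test. Autophagy and lysosome genes had a median of 0.04, with ULK1, a kinase that starts autophagy, at 9.03 and 11.5 FPKM (ratio 1.27), CTSD at 58.1 and 68.7 FPKM (ratio 1.18), GABARAPL1 at 10.3 and 11.8 FPKM (ratio 1.15), and CTSB at 22.7 and 18.6 FPKM (ratio 0.822).

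Immediate early genes, which growth factors and stress switch on within minutes, had 21 of 25 members above 0, against 52.8% of all tested genes. Their median was 0.31. Of the 25, 13 passed 1.2-fold upward, against 10.1% of all tested genes, and 4 passed 1.5-fold, against 1.19%. Downward, 0 passed 1.2-fold, against 5.32% of all tested genes. JUN, a subunit of AP-1, was at 10.6 FPKM in Vector-1 and 17.6 FPKM in ESM1 (ratio 1.67, 1.49 to 1.86). BTG2, an antiproliferative gene that p53 also activates, was at 13.5 and 24.03 FPKM (ratio 1.78, 1.60 to 1.98). It is also on the p53 list, and ATF3, another member past 1.5-fold, is also on the ATF4 list. CTGF, a matricellular protein and YAP target, was at 3.81 and 6.46 FPKM (ratio 1.70, 1.36 to 2.13). ESM1 was the highest of the 5 libraries for 5 of the 25, against 14% of all tested genes. CTGF was among them, with Vector-2 at 3.38 FPKM. Vector-1 was the lowest of 5 libraries for 16 of the 25, against 34% of all tested genes. Against Vector-2 the list median was -0.28. MYC, a driver of growth chosen after its values were seen, was at 80.7 and 80.0 FPKM. FOSB, FOSL1, EGR2, EGR3 and DUSP5 were too low to test.

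Most cell cycle genes other than histones were lower in ESM1 by small amounts. In the mitosis and kinetochore list 56 of 62 members were below 0, against 46.9% of all tested genes, and the median was -0.14. MKI67, the proliferation antigen Ki-67 and the member furthest from 0, was at 27.2 FPKM in Vector-1 and 18.4 FPKM in ESM1, a ratio of 0.676 (0.646 to 0.708). NUSAP1, a spindle protein, was at 105 and 82.4 FPKM (ratio 0.785, 0.747 to 0.825). CENPF, a kinetochore protein, was at 24.6 and 19.7 FPKM (ratio 0.801, 0.763 to 0.841), and KIF15, a spindle motor, at 13.2 and 10.4 FPKM (ratio 0.787, 0.712 to 0.868). These 4 were lower in ESM1 by more than counting error. CCNB1 and CDK1, regulators of mitotic entry, differed less than these 4, which were named as the members furthest from 0. Beside the list median of -0.14, CCNB1 was at -0.22 and CDK1 at -0.10. CCNB1 was at 107 and 92.1 FPKM (ratio 0.858, 0.815 to 0.903), and its kinase CDK1 at 156 and 145 FPKM (ratio 0.930, 0.890 to 0.972). CDC20, an activator of the anaphase complex chosen after its values were seen, was at 108 and 113 FPKM, with a ratio of 1.05 (0.992 to 1.11).

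Replication genes had 34 of 44 members below 0, against 46.9% of all tested genes, and a median of -0.09. Of the 44, 3 were at least 1.2-fold lower, near the 5.32% of all tested genes. DTL, which targets CDT1 and p21 for degradation, was at 36.3 FPKM in Vector-1 and 28.4 FPKM in ESM1 (ratio 0.783, 0.737 to 0.832). GINS1, part of the replicative helicase, was at 35.7 and 28.6 FPKM (ratio 0.800), RFC3, a clamp loader subunit, at 70.2 and 57 FPKM (ratio 0.811), and RRM1, a ribonucleotide reductase subunit, at 134 and 112 FPKM (ratio 0.837). PCNA, the sliding clamp, was at 385 and 368 FPKM (ratio 0.956, 0.924 to 0.989). Some replication genes lay the other way. LIG1, the ligase of lagging strand synthesis, was at 37.0 and 43.1 FPKM (ratio 1.16, 1.09 to 1.24), and CDC45, a helicase subunit, at 36.1 and 40.7 FPKM (ratio 1.13, 1.03 to 1.23), both chosen after their values were seen.

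DNA damage repair genes had 21 of 23 members below 0, against 46.9% of all tested genes, and a median of -0.11. CLSPN, an adaptor of checkpoint signalling, was at 12.4 FPKM in Vector-1 and 9.76 FPKM in ESM1 (ratio 0.788, 0.729 to 0.850). EXO1, a nuclease, was at 25.9 and 20.9 FPKM (ratio 0.809), XRCC2, a homologous recombination factor, at 13.9 and 11.5 FPKM (ratio 0.827), and CHEK2, a checkpoint kinase, at 21.9 and 18.2 FPKM (ratio 0.832). H2AFX, the histone variant phosphorylated at breaks and chosen after its values were seen, was at 115 and 131 FPKM (ratio 1.14, 1.08 to 1.2).

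Among G1 regulators 18 of 23 were below 0, against 46.9% of all tested genes, and the median was -0.04. CCNE2, a cyclin of S phase entry, was at 35.7 FPKM in Vector-1 and 28.7 FPKM in ESM1 (ratio 0.803, 0.741 to 0.869). E2F2 was at 20.3 and 16.4 FPKM (ratio 0.810), CDC25A, a phosphatase that activates CDK2, at 15.8 and 12.8 FPKM (ratio 0.809), and E2F1 at 35.8 and 34.7 FPKM, with a ratio of 0.969 (0.898 to 1.05) that counting error covers. CDKN1A, given above, was the member furthest above 0. Other inhibitors varied, with CDKN2A (p16) at 19.8 and 24.1 FPKM, CDKN1B (p27) at 67.2 and 67.6 FPKM and CDKN1C (p57) at 2.32 and 1.39 FPKM, all chosen after their values were seen. CCND2 was too low to test.

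The empty vectors differed more from each other in these lists than ESM1 did from its own vector, with medians of 0.49 for replication, 0.33 for mitosis and 0.53 for repair in Vector-1 against Vector-2. Vector-1 was the highest of the 5 libraries for 33 of 44 replication genes (75%), 47 of 62 mitosis genes (75.8%) and 17 of 23 repair genes (73.9%), against 25.3% of all tested genes. DTL was at 21.6 FPKM in Vector-2, 18.5 FPKM in ESM1-NES and 18.6 FPKM in ESM1-NLS, below both Vector-1 and ESM1. Against Vector-2, ESM1 had medians of 0.46 for replication, 0.15 for mitosis and 0.44 for repair, so the direction turned with the choice of empty vector. MKI67 was lower in ESM1 against either, since Vector-2 was at 21.4 FPKM. It was also lower in both altered forms than in their own vector, at 14.8 FPKM in ESM1-NES and 11.4 FPKM in ESM1-NLS. MKI67 has a long transcript, with an effective length of 11916 bases. Its differences were -0.54 in ESM1, -0.85 in ESM1-NLS and -0.51 in ESM1-NES. Protein-coding genes over 8000 bases had medians of -0.09, -0.18 and -0.41 in the same comparisons. With length corrected, MKI67 was at -0.46 in ESM1. The part of length in the other 2 was not tested.

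**Figure D3:**
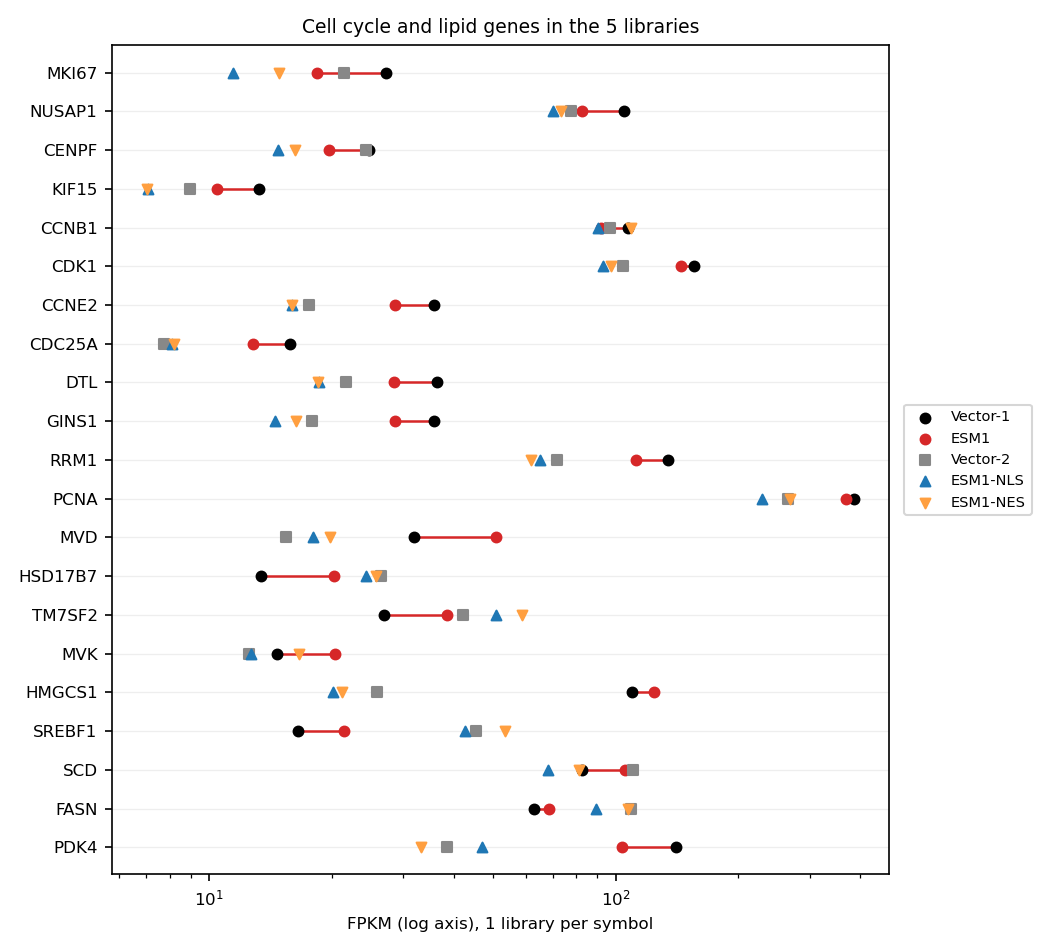
FPKM of 21 cell cycle and lipid genes in the 5 libraries (log axis, 1 library per symbol), with a red line from Vector-1 to ESM1. ESM1 (red) is to the left of Vector-1 (black) for the cell cycle genes and to the right for the lipid genes other than PDK4, and both are far above the other libraries for HMGCS1, at 109 and 124 FPKM.

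Histone genes lay opposite to the rest of the cell cycle. Only 18 of 73 histone symbols reached a mean of 1 FPKM, 20 of the other 55 being listed at 0 in both libraries. HIST1H4K, listed at 0 in Vector-1 and at 2.27 FPKM in ESM1, reached that mean only through ESM1 and is left out of the counts here. Of the other 17, 16 were above 0, against 52.8% of all tested genes, with a median of 0.48. Among these 17, 15 passed 1.2-fold upward, against 10.1% of all tested genes, and 6 passed 1.5-fold, against 1.19%. Without the filter on level, with HIST1H4K included and symbols at 0 in both libraries left out, 44 were above 0 and the median was 0.31. Of all 18456 genes compared that way, 9652 were above 0. HIST1H2BK was at 20.0 FPKM in Vector-1 and 32.4 FPKM in ESM1 (ratio 1.62, 1.37 to 1.93). HIST1H1C, a linker histone, was at 9 and 14.02 FPKM (ratio 1.56, 1.18 to 2.06). HIST2H2AA3 and HIST2H2AA4 were both listed at 8.92 and 13.96 FPKM (ratio 1.57, 1.11 to 2.19). As identical copies they are 1 observation, yet both were included in each of the counts here. HIST1H2AC, chosen after its values were seen, was at 1.8 and 5.04 FPKM (ratio 2.80, 1.41 to 5.70), which rests on an estimated 13 and 33 reads. Histone transcripts are short, with a median effective length of 440 bases, and most lack a poly(A) tail. The labels do not say how RNA was selected for the libraries, and its part in the histone difference was not tested.

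Cholesterol synthesis was the lipid list with the most even direction. All 20 members were above 0, against 52.8% of all tested genes, and 0 were below 0, with a median of 0.19. At least 1.2-fold higher were 6, against 10.1% of all tested genes, and 1 passed 1.5-fold, against 1.19%. The mevalonate pathway enzymes MVK and MVD were at 14.7 and 20.3 FPKM (ratio 1.39, 1.22 to 1.57) and at 32.0 and 50.7 FPKM (ratio 1.59, 1.45 to 1.73) in Vector-1 and ESM1. HSD17B7, a sterol ketoreductase, was at 13.4 and 20.3 FPKM (ratio 1.51, 1.29 to 1.77), and TM7SF2, a sterol reductase, at 26.9 and 38.5 FPKM (ratio 1.43, 1.29 to 1.59). FDFT1, squalene synthase, chosen after its values were seen, was at 233 and 311 FPKM (ratio 1.33, 1.29 to 1.37). HMGCS1, which makes HMG-CoA at the entry of the pathway, differed less, at 109 and 124 FPKM (ratio 1.14, 1.10 to 1.17).

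ESM1 was the highest of the 5 libraries for 17 of the 20 cholesterol genes (85%), against 14% of all tested genes. For HMGCS1 most of that distance lay between the tables, with levels of 25.9 FPKM in Vector-2, 21.2 FPKM in ESM1-NES and 20.1 FPKM in ESM1-NLS. Against Vector-2 the list median in ESM1 was 0.70. Vector-1 itself had a list median of 0.60 against Vector-2, with 17 of 20 above 0, where the median over all genes was -0.097. Most of the distance from Vector-2 was thus already present in Vector-1. In the altered forms, which share Vector-2 with each other, the median was -0.13 in ESM1-NLS, with 4 of 20 above 0 (54.1% of all genes tested there), and 0.11 in ESM1-NES, with 13 of 20 above 0 (45.8% of all genes tested there).

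Genes of sterol sensing and uptake had 10 of 13 members above 0, against 52.8% of all tested genes, and a median of 0.13. SREBF1 was at 16.5 FPKM in Vector-1 and 21.4 FPKM in ESM1 (ratio 1.3, 1.2 to 1.40), SCAP, the escort of the SREBP proteins, at 15.8 and 19.7 FPKM (ratio 1.24, 1.14 to 1.35), and STARD4, a sterol carrier, at 16.8 and 21.1 FPKM (ratio 1.26, 1.16 to 1.37). SREBF2 was at 69.9 and 74.9 FPKM (ratio 1.07, 1.03 to 1.11). MYLIP, a ubiquitin ligase that LXR induces, was at 6.2 and 7.16 FPKM (ratio 1.15, 0.977 to 1.36), within counting error. Against Vector-2, where SREBF1 was at 45.3 FPKM, the list median was -0.0027.

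Fatty acid synthesis and desaturation had 16 of 22 members above 0, against 52.8% of all tested genes, and a median of 0.10. Of the 22, 2 reached 1.2-fold upward, both of them desaturases, which is near the 10.1% of all tested genes. SCD, which makes oleate, was at 82.5 FPKM in Vector-1 and 105 FPKM in ESM1 (ratio 1.28, 1.24 to 1.32), and FADS2 was at 10.2 and 13.2 FPKM (ratio 1.3, 1.15 to 1.47). FASN, fatty acid synthase, was at 63.0 and 68.4 FPKM (ratio 1.09, 1.05 to 1.12). ELOVL7, an elongase, and ACSL1, which activates fatty acids, lay the other way, at 11.9 and 10.1 FPKM (ratio 0.848) and at 15.5 and 13.3 FPKM (ratio 0.858). Against Vector-2, with FASN at 109 FPKM there, the list median was -0.0073.

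Of 6 tested genes of cholesterol efflux and its receptor LXR, 4 were above 0, against 52.8% of all tested genes. Their median was 0.28. NR1H2, which encodes LXRβ, was at 15.0 FPKM in Vector-1 and 19.9 FPKM in ESM1 (ratio 1.33, 1.18 to 1.51), whereas NR1H3, which encodes LXRα, was at 6.17 and 4.23 FPKM (ratio 0.686, 0.529 to 0.891). APOE was at 9.72 and 13.1 FPKM (ratio 1.35, 1.10 to 1.66), and APOC1 at 16.1 and 21.3 FPKM (ratio 1.32, 0.992 to 1.75). The pair of receptors thus lay in opposite directions. ABCA1 and ABCG1, the cholesterol exporters, were too low to test.

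Lipid use and storage differed least. Fatty acid oxidation had 12 of 21 members above 0, near the 52.8% of all tested genes, and a median of 0.021. CPT1A, which admits fatty acids to mitochondria, was at 32.2 FPKM in Vector-1 and 30.2 FPKM in ESM1 (ratio 0.938, 0.885 to 0.994). PDK4, a kinase that shuts off pyruvate oxidation, was the outlying member, at 141 and 104 FPKM (ratio 0.739, 0.713 to 0.765), and was at 38.5 FPKM in Vector-2. ACAA1, ETFB and DECR1 had ratios of 1.17, 1.12 and 1.09. EHHADH was too low to test. Glycerolipid synthesis and lipid droplet genes had 9 of 19 members above 0, against 52.8% of all tested genes, and a median of -0.014. DGAT1 and DGAT2, which complete triglyceride synthesis, were at 10.6 and 8.84 FPKM (ratio 0.832, 0.733 to 0.941) and at 6.37 and 4.95 FPKM (ratio 0.777, 0.630 to 0.95). GPAT4, which starts it, was at 17.9 and 15.9 FPKM (ratio 0.890), and HILPDA, an inhibitor of droplet lipolysis, at 28.1 and 32.0 FPKM (ratio 1.14).

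**Figure D4:**
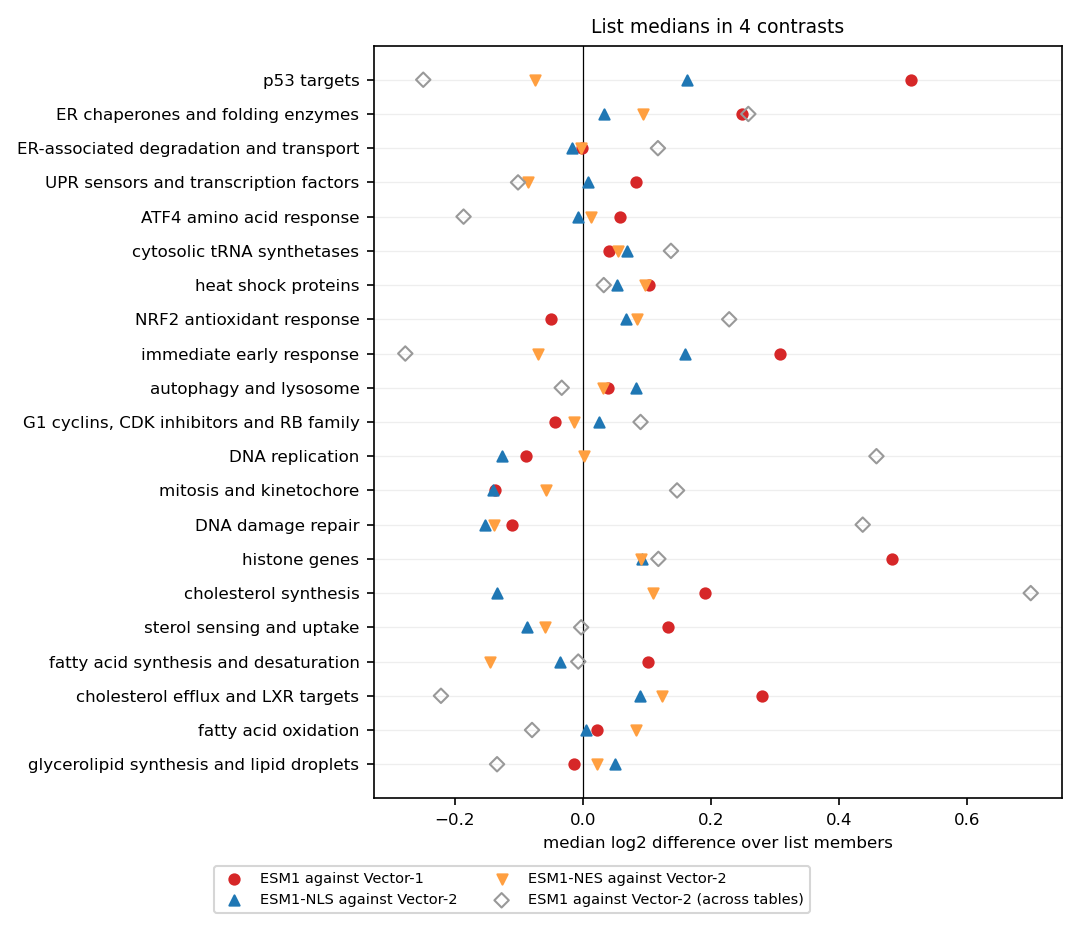
Median log2 difference of each list in ESM1 against Vector-1 (red), ESM1-NLS and ESM1-NES against Vector-2 (blue and orange), and ESM1 against Vector-2 across the separately normalised tables (grey, open). Members are those tested in ESM1 against Vector-1. The red and grey points lie on opposite sides of 0 for the p53 targets, at 0.51 and -0.25. They lie on the same side for ER chaperones, at 0.25 and 0.26, and for cholesterol synthesis, at 0.19 and 0.70. Vector-1 against Vector-2, not drawn, had a cholesterol synthesis median of 0.60.

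Without the lists, the 10 highest of 8629 protein-coding genes averaging 5 FPKM or more were ESM1 and 9 others. Of these 9, 8 were stress list members, namely ATF3, PHLDA3, HERPUD1, CDKN1A, BBC3, HSPA5, DDB2 and SESN2. Stress list members made up 230 of all 12296 tested genes. The lists had been written with earlier results of these data known. GADD45G, a growth arrest gene and the only one outside the lists, was at 6.21 FPKM in Vector-1 and 11.9 FPKM in ESM1 (ratio 1.91, 1.48 to 2.51). Of the 8629, 58 (0.672%) lay 1.5-fold or more above Vector-1 and 7 (0.0811%) as far below.

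None of the 10 lowest genes was a stress, cell cycle or lipid member, which is near the share of 496 in all 12296 tested genes. PEG10, a gene derived from a retrotransposon, was at 289 FPKM in Vector-1 and 169 FPKM in ESM1 (ratio 0.584, 0.573 to 0.596). MYO1D, an unconventional myosin, was at 43.9 and 27.0 FPKM (ratio 0.615, 0.582 to 0.650). SERPINE2, a secreted protease inhibitor, was at 25.3 and 16.4 FPKM (ratio 0.647), and FN1, fibronectin, at 11.7 and 7.50 FPKM (ratio 0.643). CXCL13, a chemokine, was at 18.2 and 10.7 FPKM (ratio 0.587), and CGA, the common subunit of glycoprotein hormones, at 14.7 and 8.59 FPKM (ratio 0.585). For these 6, Vector-2 was at 131, 22.6, 10.4, 3.98, 3.78 and 2.55 FPKM in turn, below both Vector-1 and ESM1. Levels across the separately normalised tables are approximate, and which library stands apart was not tested. COTL1, ACBD7, KLK2 and IFITM1 completed the 10, with ratios of 0.618, 0.619, 0.659 and 0.637. KLK2, an androgen-responsive kallikrein, was at 27.5 and 18.1 FPKM.

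Transcript length and base composition moved with the differences. Across 11475 protein-coding genes the difference had a Spearman rho of -0.27 with effective length, and across 11454 genes a rho of 0.33 with GC content, as descriptions across genes of the same 2 libraries. The median was 0.07 for the 805 genes of up to 1000 bases and -0.09 for the 554 over 8000 bases, and it ran from -0.05 at a GC content up to 40% to 0.14 above 60%. The mitosis list has a low GC content, with a median of 42.6%, and the ER chaperones 51.3%. With the median of each class of length and GC content subtracted, the list medians were 0.48 for p53 targets, 0.16 for ER chaperones, 0.24 for immediate early genes, -0.13 for mitosis, -0.09 for replication, 0.43 for histones and 0.18 for cholesterol synthesis. Fatty acid synthesis was at 0.03 after the same step. Each of these lists kept its side of 0.

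**Figure D5:**
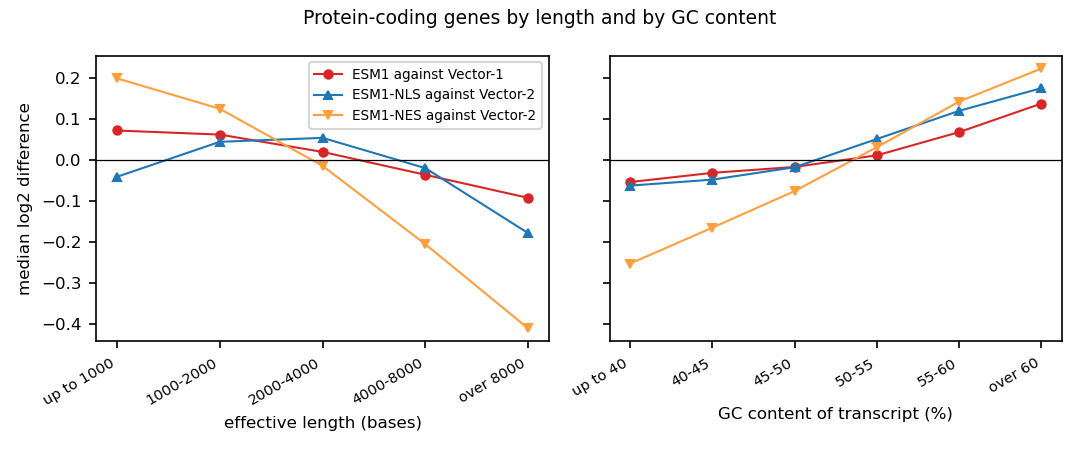
Median log2 difference of protein-coding genes by effective length (left, bases) and by GC content of the transcript (right, percent) in the 3 comparisons, each made within 1 table. In ESM1 against Vector-1 (red) the median goes from 0.07 to -0.09 with length and from -0.05 to 0.14 with GC content, and ESM1-NES (orange) covers a wider range, from 0.20 to -0.41 with length.

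Markers of other cell types were mostly low. Markers of fibroblasts and smooth muscle summed to 5.36 FPKM in Vector-1 and 8.22 FPKM in ESM1, of which ACTA2 was 1.90 and 4.19 FPKM, with 3 of 8 at a mean of 1 or more. Leukocyte markers summed to 3.44 and 3.50 FPKM, 1 of 7 reaching that mean, and PTPRC was at 0.05 and 0.09 FPKM. Basal markers summed to 7.70 and 8.51 FPKM with 2 of 6 at that mean, and KRT5 was listed at 0 in both. Neuroendocrine markers summed to 132 and 122 FPKM with 3 of 7 at that mean, while INSM1 was listed at 0 in both. Their part in the list differences was not tested.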

How the data were processed

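RNA sequencing of 5 libraries, 1 per group, was used as 2 deposited tables of 26506 gene symbols. Trimmomatic, Bowtie2, RSEM and hg19 are named in the submitters' processing notes, with no version or order. The authors deposited FPKM and, for Vector-2, ESM1-NLS and ESM1-NES, expected counts, per the file headers. The table of Vector-1 and ESM1 names no unit. Its deposited values were taken as FPKM because they do not share 1 total and because low values lie near whole multiples of 1 read (within 0.15 reads for 78.0% of 200 values in Vector-1 and 76.6% of 184 in ESM1). Strandedness was not given in the sources used, and reads of antisense or overlapping genes may not be separable, and near-identical copies are uncertain.

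Effective length was the authors' expected count over FPKM, and the spacing of low values gave the depth of the FPKM table. The same method recovered the known depths of the other 3 libraries to within 0.51%, 0.80% and 0.74%. Symbols were matched to RefSeq of GRCh38.p14 (25328 matched) for biotype and promoters, and GC content was available for 99.8% of tested protein-coding genes. That build differs from hg19, and other coordinates are not given. Calculations used Python 3.11.15, pandas 2.3.3, numpy 2.4.6 and scipy 1.17.1, and were tested on simulated data.

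The members, the 26 lists (10 stress, 5 cell cycle, 6 lipid and 5 others) and the markers were chosen with earlier results of these data known. Named genes were ESM1, 20 anchor genes, the 4 members furthest from 0 in each stress, cell cycle and lipid list among those averaging 5 FPKM or more, and the 10 highest and 10 lowest protein-coding genes above that level, Y-linked genes left out, which gave 106 genes. Any other gene is said to be chosen after its values were seen. Some genes covered by the rule are not reported here. A fold call is made on the log2(FPKM + 1) scale, which understates the change of low genes. Alternatives changed the pseudocount, the filter, the scaling, the gene set, the correction for length and GC content, and the control.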

Additional observations from a re-analysis of the deposited data

Results flagged for a closer look

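In the cholesterol synthesis list the median difference was 0.19 in ESM1 against Vector-1 and -0.13 in ESM1-NLS against Vector-2, so the 2 comparisons, which share no library, lay on opposite sides of 0. In fatty acid synthesis and desaturation the median was 0.10 in ESM1 and -0.14 in ESM1-NES. Both stand out for that opposite direction alone. The difference between comparisons was not tested, since each comparison has 1 library per side.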

How the results depend on the processing

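The choice of control moved more of the results than any other alternative. With Vector-2 in place of Vector-1, across separately normalised tables and with the filter applied over ESM1 and Vector-2, 501 and 1368 genes were at least 1.5-fold higher and lower and 118 and 283 at least 2-fold higher and lower. Of all 12702 genes compared that way, 5269 were above 0, and their median was -0.072. The counts of list members above 0 given below are to be read beside that share. Of 26 list medians 9 kept their sign. Among those of 0.1 or more, medians turned direction for p53 at -0.26, immediate early at -0.31, mitosis at 0.15, repair at 0.44, sterol sensing and uptake at -0.0027, fatty acid synthesis at -0.0073 and LXR at -0.27. Other medians moved beyond their 95% order-statistic interval, several of them across 0, with ER-associated degradation at 0.12, UPR sensors at -0.10, ATF4 at -0.19, NRF2 at 0.23, autophagy at -0.043, G1 regulators at 0.090, replication at 0.46, histones at 0.0066, cholesterol synthesis at 0.70, fatty acid oxidation at -0.080, glycerolipids at -0.15, ribosomal proteins at -0.24, proteasome at 0.27, oxidative phosphorylation at -0.097, hypoxia and glycolysis at -0.24 and androgen targets at -0.38. Members above 0 numbered p53 4, UPR sensors 4, ATF4 10, heat shock 12, NRF2 19, immediate early 5, autophagy 10, G1 regulators 14, replication 44, mitosis 48, repair 17, sterol sensing and uptake 5, LXR 1, fatty acid oxidation 4, ribosomal proteins 9, oxidative phosphorylation 8 and hypoxia and glycolysis 3. Of 106 named genes 42 kept their sign, and among those 1.5-fold or more apart the direction turned for CDKN1A at -1.01, DDIT3 at -0.90, PHLDA3 at -0.12, BBC3 at -0.60, DDB2 at -0.091, HERPUD1 at -0.55, ATF3 at -0.44, SESN2 at -0.51, BTG2 at -0.95, JUN at -0.79, PEG10 at 0.37, CXCL13 at 1.29, CGA at 1.43, MYO1D at 0.24, SERPINE2 at 0.61 and GADD45G at -1.16. The cause was not tested.

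No other alternative turned a list median of 0.1 or more or a named gene 1.5-fold or more apart. Among smaller differences, 105 of 106 named genes kept their sign with length corrected and 104 of 106 with length and GC corrected, where ATF4 was at -0.0015. Sizes changed more than signs under that last step. HSPA1B went from 0.23 to 0.087, CTSD from 0.24 to 0.095, HSF1 from 0.31 to 0.17, FARSA from 0.30 to 0.16 and PPP1R15A from 0.29 to 0.15. Others lay further from 0 after it, as did E2F1, from -0.04 to -0.17, and SCD, from 0.35 to 0.43. The counts of genes at least 1.5-fold higher and lower and 2-fold higher and lower were 296, 129, 63 and 21 with a pseudocount of 0.1, 33, 3, 6 and 0 with a pseudocount of 5, 64, 8, 7 and 0 at a mean of 5 FPKM or more, and 243, 154, 60 and 22 after rescaling to TPM. Without a filter 87 were 1.5-fold and 7 were 2-fold lower. Among protein-coding genes 14 were 2-fold higher and 1 was 2-fold lower. With length and GC classes corrected 57 were 1.5-fold and 11 were 2-fold higher. The histone median was 0.63 with a pseudocount of 0.1, 0.27 with 5 and, unfiltered, 0.31, where 44 members were above 0, against 7 at a mean of 5 FPKM. The p53 median was 0.33 with a pseudocount of 5. Androgen targets above 0 numbered 2 at a mean of 5 FPKM. After rescaling to TPM the medians of ER-associated degradation and ribosomal proteins were -0.031 and 0.019, and G1 regulators and repair genes above 0 numbered 3 and 1, as they did with the median of all genes set to 0. With length corrected, ribosomal proteins had a median of -0.0099 and 38 above 0, the proteasome a median of 0.0059, and oxidative phosphorylation a median of -0.049 and 14 above 0. With length and GC corrected, ribosomal proteins had a median of 0.0068 and repair genes 4 above 0. Leaving out members shared between lists, leaving out members below 1 FPKM in either library (HIST1H4K alone) and the 1.2-fold counts were added after seeing the data. All 12 medians that the first touched stayed within their interval, as did the histone median under the second, at 0.48.

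No paired analysis was possible because each group has 1 library, and for the same reason no replicate was left out. Depth limits low genes, and intervals on estimated reads cover counting error only.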

Other observations

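Lists outside stress, cell cycle and lipids are set against the 52.8% of all tested genes that were above 0. Cytosolic ribosomal proteins had 58 of 79 members above 0 and a median of 0.05, and proteasome subunits 23 of 31 and 0.07. Oxidative phosphorylation had 22 of 40 and 0.0060. Genes of hypoxia and glycolysis had 12 of 24 above 0 and a median of -0.0093. The 1 member that passed 1.5-fold was the hypoxia gene ANKRD37, at 1.61 FPKM in Vector-1 and 3.05 FPKM in ESM1 (ratio 1.89, 1.09 to 3.44), a gene outside the naming rule.

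Androgen-responsive genes had 11 of 16 members below 0, against 46.9% of all tested genes, and a median of -0.09. At least 1.2-fold lower were 4, against 5.32% of all tested genes, and 0 were 1.2-fold higher, against 10.1%. The kallikreins KLK2 and KLK3, which encodes prostate-specific antigen, had ratios of 0.659 (0.599 to 0.725) and 0.716 (0.572 to 0.889), and FKBP5, an immunophilin co-chaperone, was at 195 and 150 FPKM (ratio 0.770, 0.748 to 0.792). KLK3 and FKBP5 were chosen after their values were seen. Vector-2 was at 43.0 FPKM for KLK2, 20.3 FPKM for KLK3 and 289 FPKM for FKBP5, above both libraries, so these genes were lower in ESM1 against either empty vector.

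Across genes, the differences in ESM1 against Vector-1 had a Spearman rho of 0.29 with those in ESM1-NLS against Vector-2 (11373 genes) and of 0.36 with those in ESM1-NES against Vector-2 (11359 genes). These describe genes, not replicates, the comparisons share no library with ESM1 against Vector-1, and differences in each moved with length and GC content.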
